A study of Mus musculus with 2 samples.

Results

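The arterial Notch genes described here are 10 genes of arterial endothelium, found by symbol among the 31054 features counted in the mouse bladder: Hey1, Gja4, Gja5, Sema3g, Dll4, Notch1, Notch4, Jag1, Jag2 and Efnb2. All 10 symbols matched 1 row each. Droplet-based single-cell RNA sequencing (10x Genomics 3' chemistry) was run on cells of the bladder of 1 male mouse aged 25 months, genotype p16-CreERT2/R26-LSL-tdTomato. Its p16-driven, tamoxifen-inducible Cre recombinase switches on the red reporter tdTomato from the R26 locus, so that cells using the p16 promoter when tamoxifen is present stay marked afterwards. Tamoxifen was injected intraperitoneally on 5 consecutive days, and the bladder was taken 2 weeks later. Live cells lacking the leukocyte marker CD45 were sorted into a tdTomato-negative library (Tom-) and a tdTomato-positive library (Tom+). Both libraries therefore share genotype, tamoxifen, age and animal and differ in the sort gate, and each group holds 1 library. The 10 genes were chosen by their levels in endothelial-like cells of these 2 libraries, Sema3g and Gja4 being among the lowest genes in Tom+, so every level and ratio below is a description without a test. The 95% intervals cover counting error only.

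Notch signalling passes between touching cells: a ligand on one cell binds a receptor on its neighbour, the receptor is cut, and its intracellular part enters the nucleus and joins the DNA-binding protein RBPJ to switch on target genes. In developing vessels this pathway, downstream of VEGF, favours arterial over venous identity and limits the number of sprouting tip cells. Arteries also carry ephrin-B2 on their surface and veins its receptor EphB4, and arterial endothelial cells are coupled by a particular set of gap junction proteins.

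Among the ligands, Dll4 (ENSMUSG00000027314, chr2:119325784-119335962, plus strand, all positions on GRCm38) encodes the Delta-type ligand of arteries and tip cells. Jag1 (ENSMUSG00000027276, chr2:137081456-137116644, minus strand) and Jag2 (ENSMUSG00000002799, chr12:112907819-112929776, minus strand) encode the Jagged ligands, of which Jag1 is also used between endothelium and smooth muscle. Among the receptors, Notch1 (ENSMUSG00000026923, chr2:26457903-26516663, minus strand) is broadly expressed, and Notch4 (ENSMUSG00000015468, chr17:34564268-34588503, plus strand) is known mainly from endothelium. Hey1 (ENSMUSG00000040289, chr3:8663359-8667256, minus strand) is a target gene of the pathway and encodes a transcriptional repressor. Gja4 (ENSMUSG00000050234, chr4:127311421-127314039, minus strand) and Gja5 (ENSMUSG00000057123, chr3:96904693-97077416, plus strand) encode the gap junction proteins connexin 37 and connexin 40. Sema3g (ENSMUSG00000021904, chr14:31217860-31230352, plus strand) encodes a secreted semaphorin of arterial endothelium, and Efnb2 (ENSMUSG00000001300, chr8:8617434-8661242, minus strand) encodes ephrin-B2.

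The Tom- library held 13551 barcodes with 197232860 UMIs (unique molecular identifiers, 1 per captured transcript), and the Tom+ library 2783 barcodes with 34455896 UMIs. After filtering and removal of predicted doublets 9905 and 1883 cells remained. The libraries shared 966 barcode sequences, of which 660 Tom- and 346 Tom+ barcodes were among the cells used. Whether a shared barcode marks the same droplet was not tested. Among endothelial-like cells, named from 12 endothelial markers that do not include the 10 genes, 12 of 655 Tom- and 10 of 163 Tom+ cells had a shared barcode. In these cells tdTomato was 88.9 CPM (UMI counts of a class summed and scaled to the same total) in Tom- and 2228 CPM in Tom+, and Cdkn2a, the p16 gene, had 2 and 0 UMIs.

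Endothelial-like cells were divided by the mean score of 10 arterial, 8 capillary and 8 venous markers, again without the 10 genes, where 1 score led the next by at least 0.25. In Tom- this gave 98 arterial-gated, 218 capillary-gated and 188 venous-gated cells, with 151 between the gates. In Tom+ the counts were 6, 26, 97 and 34. Arterial-gated cells thus made up 15.0% (12.3 to 17.9, exact Clopper-Pearson interval) of endothelial-like cells in Tom- and 3.68% (1.36 to 7.84) in Tom+. The gates are ranges of a score and not separate populations, with 129 cells within 0.1 of a margin. In Tom- the arterial markers had a median of 4595 CPM over arterial-gated cells, against 739 CPM over capillary-gated and 878 CPM over venous-gated cells. In the 6 Tom+ arterial-gated cells the same markers had a median of 2459 CPM, and the venous markers stood at 1189 CPM against 613 CPM in Tom-. Lymphatic endothelial-like cells formed a cluster of their own, with 197 Tom- and 89 Tom+ cells.

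Within Tom-, Gja4, Gja5 and Sema3g were the members held most narrowly by the arterial gate. Gja4 was 326 CPM (286 to 371, exact Poisson interval) in arterial-gated cells, 29.4 CPM (20.9 to 40.3) in capillary-gated and 0.590 CPM, from 1 UMI, in venous-gated cells. Gja5 was 129 CPM (104 to 158) in arterial-gated and 7.55 CPM (3.62 to 13.9) in capillary-gated cells, and it had no UMI in venous-gated cells, where 3 counts would be 1.77 CPM. Sema3g was 446 CPM (398 to 497), 58.1 CPM (45.9 to 72.7) and, from 2 UMIs, 1.18 CPM in the same order. For all 3 genes the intervals of the 3 gates did not overlap. The arterial-gated cells, which held 15.1% of the endothelial UMIs of the library, held 75.6% of the UMIs of Gja4, 78.6% of those of Gja5 and 70.7% of those of Sema3g. Arterial over capillary, the ratios were 11.1 (7.87 to 15.99), 17.1 (8.88 to 36.8) and 7.66 (5.96 to 9.96).

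Since Gja4, Gja5 and Sema3g shared this pattern, the 250 bases before their RefSeq starts are shown (GRCm38.p6, each read 5′ to 3′ on the strand of its gene). The capitals mark the GC box GGGCGGG or its reverse complement CCCGCCC. The window of Gja4 is chr4:127314040-127314289 on the minus strand, that of Gja5 chr3:97032152-97032401 on the plus strand, inside the span of the annotated gene, and that of Sema3g chr14:31217623-31217872 on the plus strand.
Gja4: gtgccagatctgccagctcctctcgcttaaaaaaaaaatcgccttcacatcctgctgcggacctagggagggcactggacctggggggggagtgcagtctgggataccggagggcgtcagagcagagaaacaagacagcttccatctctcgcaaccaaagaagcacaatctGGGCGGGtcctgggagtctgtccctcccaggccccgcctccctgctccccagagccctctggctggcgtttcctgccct
Gja5: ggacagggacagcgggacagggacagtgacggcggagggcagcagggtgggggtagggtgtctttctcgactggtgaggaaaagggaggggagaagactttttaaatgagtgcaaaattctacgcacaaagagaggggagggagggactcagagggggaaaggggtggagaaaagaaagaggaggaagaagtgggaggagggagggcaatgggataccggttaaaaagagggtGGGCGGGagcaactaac
Sema3g: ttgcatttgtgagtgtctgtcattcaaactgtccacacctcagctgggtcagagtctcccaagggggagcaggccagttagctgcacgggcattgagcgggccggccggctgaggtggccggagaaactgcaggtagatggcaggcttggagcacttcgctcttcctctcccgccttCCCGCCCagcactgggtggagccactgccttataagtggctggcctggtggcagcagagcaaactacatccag
Each of these windows holds 1 GC box, and over 300-base windows that add the first 50 bases of the gene, 7 of the 9 members with a window hold it, against 25.6% of all 32851 RefSeq windows. The GC content of the members' windows ran from 55.7% (Gja5 and Jag1) to 86.0% (Jag2), and the median of all windows was 52.7%. The core of the RBPJ motif, TGGGAA or TTCCCA on the other strand, is in 25.6% of all windows and in 1 of the 9, that of Sema3g, where it lies after the start, in the stretch chr14:31217894-31217917, and is shown in capitals.
Sema3g, around the match: catttttttTTCCCAgcatggacc
These are matches of letters in a window, and no binding was measured here. CACGCG, a site of HES and HEY repressors, is in the windows of Dll4, Jag1 and Jag2 and in 9.27% of all windows.

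Jag1 and Hey1 divided differently among the gates. Jag1, the Jagged ligand of the artery wall, was 272 CPM (235 to 313) in arterial-gated, 29.4 CPM (20.9 to 40.3) in capillary-gated and 36.0 CPM (27.6 to 46.3) in venous-gated cells of Tom-. Its capillary and venous levels had overlapping intervals. Hey1, the target gene, was 144 CPM (118 to 175) in arterial-gated and 100.4 CPM (84.1 to 119) in capillary-gated cells and had 1 UMI in venous-gated cells. Hey1 was therefore an arterial and capillary transcript here, with a ratio between the 2 gates of 1.44 (1.10 to 1.87), whereas that of Jag1 was 9.23 (6.52 to 13.4).

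The remaining ligands, the receptors and ephrin-B2 were shared between arterial-gated and capillary-gated cells. Dll4 was 177 CPM (147 to 210), 156 CPM (135 to 178) and 39.6 CPM (30.7 to 50.2) in arterial-gated, capillary-gated and venous-gated cells of Tom-. Jag2 was 168 CPM (139 to 201), 98.1 CPM (82.0 to 117) and 24.8 CPM (17.9 to 33.5). Efnb2 was 360 CPM (317 to 407), 257 CPM (230 to 285) and 41.3 CPM (32.2 to 52.2). Each of these 3 genes was lowest in the venous gate, and the arterial and capillary intervals overlapped for Dll4. Notch4 was 113 CPM (90.1 to 141), 94.4 CPM (78.6 to 112) and 9.45 CPM (5.40 to 15.3), so that the receptor known from endothelium was 12.0 times (6.97 to 22.0) higher in arterial-gated than in venous-gated cells. Notch1 differed least, at 262 CPM (226 to 302), 215 CPM (191 to 242) and 160 CPM (142 to 180), a ratio of 1.64 (1.35 to 1.98) between arterial-gated and venous-gated cells.

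**Figure D1:**
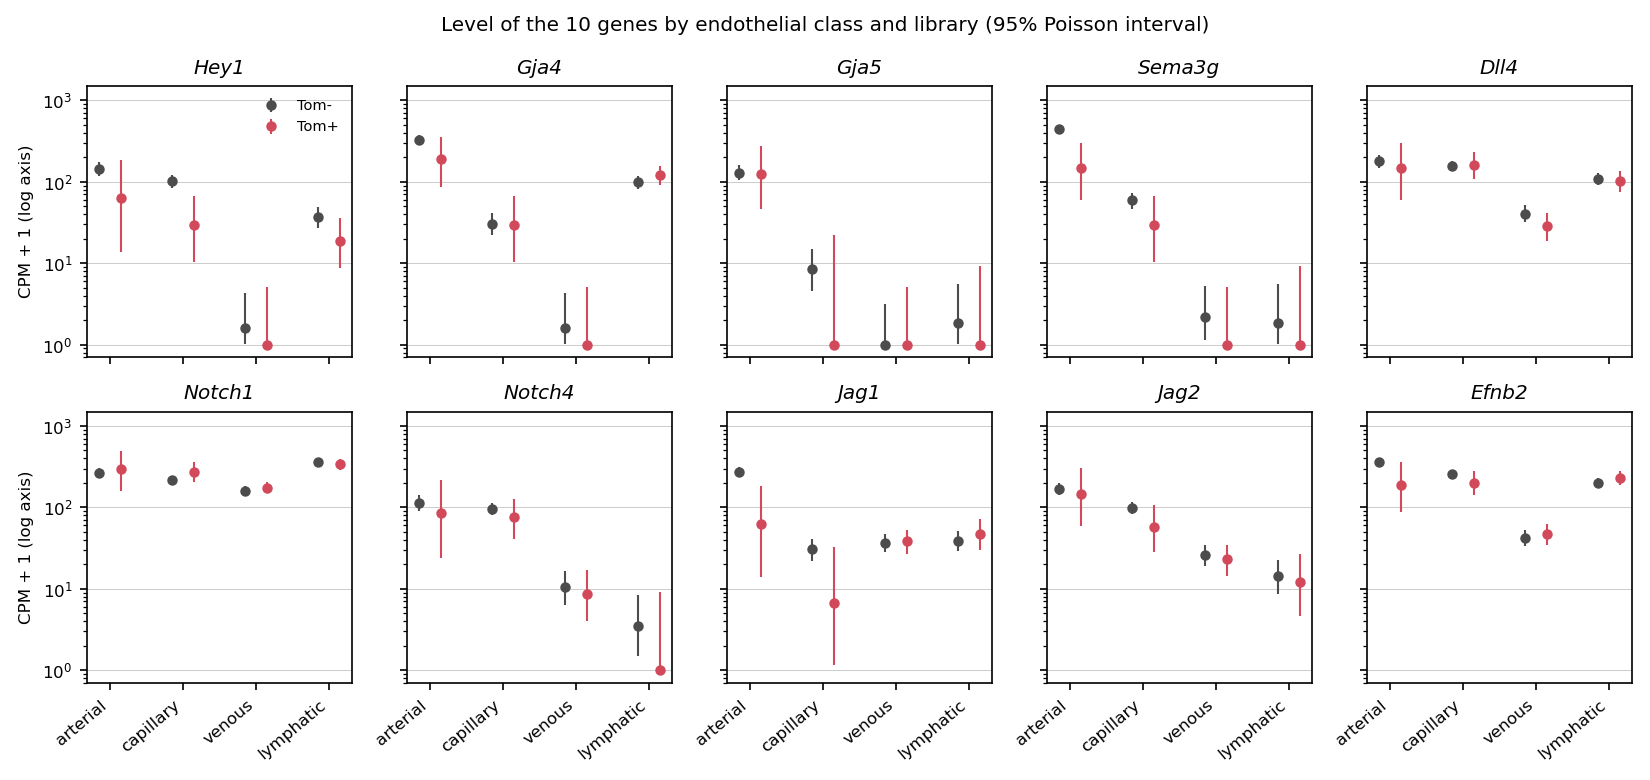
CPM + 1 on a log axis for each of the 10 genes, by endothelial class (arterial-gated, capillary-gated, venous-gated and lymphatic endothelial-like) and library, with bars for the 95% Poisson interval of 1 summed library. Gja4, Gja5 and Sema3g drop from the arterial to the venous gate in Tom-, where Gja5 has no UMI, while Notch1 stays between 160 and 356 CPM over the 4 classes, and the 6 Tom+ arterial-gated cells have wide bars.

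Clusters made without the 10 genes divided all endothelial-like cells in another way than the gates. The cluster with arterial scores (75 Tom- cells, led by Gkn3, S100a4 and Cldn5) had the highest Gja4 at 362 CPM, Sema3g at 499 CPM and Jag1 at 330 CPM in Tom-. Dll4 was instead highest, at 215 CPM against 174 CPM, in a cluster of 206 Tom- cells led by Esm1, Prdm1 and Igfbp3, of which Esm1 is known from tip cells. This cluster had capillary scores and, over both libraries, held 116 capillary-gated, 16 arterial-gated and 3 venous-gated cells. Another cluster with capillary scores, of 120 Tom- cells and led by Cd36, Timp4 and Fabp4, had Hey1 at 153 CPM, close to the 147 CPM of the arterial cluster, and Sema3g at 156 CPM. In that cluster Jag1 was 44.98 CPM. In the 3 clusters with venous scores Gja4 was at most 6.26 CPM.

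Outside blood vessels the members separated further. In lymphatic endothelial-like cells Gja4 was 97.2 CPM (80.4 to 116) among Tom- and 120 CPM (90.2 to 157) among Tom+ cells, Efnb2 was 201 CPM (176 to 228) and 231 CPM (189 to 280), and Dll4 was 108 CPM (90.2 to 128) and 102 CPM (74.9 to 136). Notch1 was higher there than in any blood endothelial gate of Tom-, at 356 CPM (323 to 392), and was 338 CPM (286 to 396) in Tom+. Sema3g and Gja5 had 1 UMI each in the lymphatic cells of Tom- and none in Tom+, where 3 counts would be 6.67 CPM, and Notch4 had 3 UMIs and none. The connexin gene Gja4 was therefore present in lymphatic cells without Gja5 or Sema3g.

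Smooth muscle-like cells, 61 in Tom- and 1 in Tom+, held Gja4 at 171 CPM (141 to 204) and Jag1 at 128 CPM (103 to 157) in Tom-. Each was found in 40 of the 61 cells (65.6%), with at most 11 UMIs of Gja4 and 8 of Jag1 in a cell. In fibroblast-like cells Gja4 was found in 0.362% of 2760 Tom- cells. The median depth was 11206 UMIs in these cells and 10671 UMIs in the smooth muscle-like cells. The part of free RNA or of transcripts from other cells in these counts was not tested. Gja5 and Notch4 had no UMI in the smooth muscle-like cells, where 3 counts would be 4.26 CPM, and Sema3g and Dll4 had 1 each. Notch3, the receptor known from mural cells, was 446 CPM (398 to 499) there and 4.46 CPM in endothelial-like cells of Tom-.

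In the urothelium Notch1, Jag1, Jag2 and Efnb2 were abundant and the other 6 genes were at most 0.836 CPM. Umbrella urothelial-like cells had Notch1 at 173 CPM (170 to 177) among Tom- and 174 CPM (167 to 180) among Tom+ cells, and Jag2 at 54.9 CPM (53.0 to 56.9) and 54.3 CPM (50.8 to 58.1). Basal or intermediate urothelial-like cells had more Jag2, at 132 CPM (126 to 138) and 134 CPM (122 to 148), and Jag1 at 48.3 CPM and 46.9 CPM. In these 2 classes the Tom+ to Tom- ratios of the 4 abundant genes lay between 0.923 (Efnb2, umbrella) and 1.05 (Notch1, basal or intermediate). Hey1, Gja4, Gja5, Sema3g and Dll4 were each under 0.4 CPM in both urothelial classes of both libraries, and Notch4 was at most 0.836 CPM. The endothelial-like cells held 93.2% of the UMIs of Gja5, 90.1% of Sema3g, 73.4% of Dll4, 64.9% of Notch4 and 63.0% of Hey1 over all used cells of both libraries, but 47.6% of Gja4, 13.6% of Efnb2, 6.90% of Notch1, 6.37% of Jag1 and 5.98% of Jag2.

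**Figure D2:**
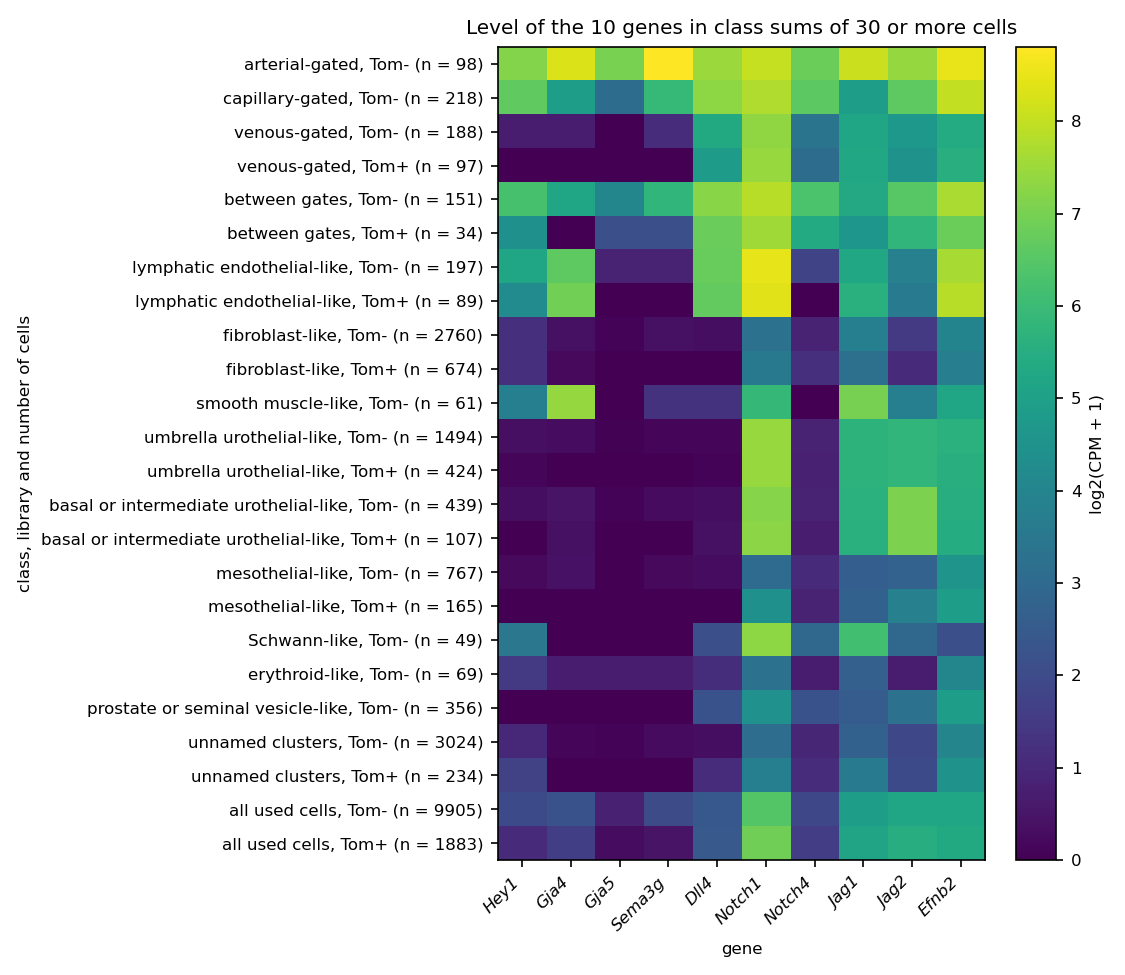
Heat map of log2(CPM + 1) for the 10 genes (columns) in each class and library summed over at least 30 cells (rows, with the number of cells). Sema3g and Gja5 are bright in the arterial-gated row, Gja4 also in the lymphatic and smooth muscle-like rows, and Notch1, Jag1, Jag2 and Efnb2 also in the urothelial rows.

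Between the libraries, 9 of the 10 genes were lower in Tom+ endothelial-like cells than in those of Tom- by 1.5 times or more after adding 1 CPM, where 9.61% of the 8865 measured genes were as much lower and 2.31% as much higher. A gene counted as measured with 10 CPM in 1 library and 20 UMIs over both. The median log2 ratio of the 10 was -1.22, beside -0.10 over all measured genes. Genes of this group were chosen for that pattern, so nothing is read from the count.

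Sema3g, Hey1, Gja4 and Gja5 had the lowest ratios of the 10. Sema3g was 95.5 CPM among Tom- and 9.10 CPM among Tom+ cells, a ratio of 0.0953 (0.0504 to 0.165). Hey1 was 65.8 CPM and 9.80 CPM (0.149, 0.0805 to 0.254), and Gja4 was 65.4 CPM and 9.80 CPM (0.14995, 0.0810 to 0.255). For Gja5 the levels were 24.8 CPM and, from 7 UMIs, 4.90 CPM (0.197, 0.0776 to 0.420). Of the 7 Gja5 UMIs of Tom+, 6 came from 1 cell.

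The ligands, Notch4 and Efnb2 were lower by less. Notch4 was 63.3 CPM among Tom- and 25.2 CPM among Tom+ cells (0.399, 0.274 to 0.564). Jag1 was 70.5 CPM and 31.5 CPM (0.447, 0.320 to 0.612), Jag2 80.9 CPM and 37.1 CPM (0.459, 0.338 to 0.613), and Dll4 116 CPM and 64.4 CPM (0.555, 0.440 to 0.693). Efnb2 was 184 CPM and 83.3 CPM (0.453, 0.371 to 0.549). Notch1 was the exception, at 206 CPM (193 to 220) and 193 CPM (170 to 217), a ratio of 0.934 (0.814 to 1.07) whose interval includes 1.

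Markers of other cells differed between these 2 sets of cells as well. Summed over 7 fibroblast markers, all 7 detected in both libraries, endothelial-like cells had 896 CPM among Tom- and 172 CPM among Tom+ cells, and over 5 erythroid markers, all detected in both, 948 CPM and 68.6 CPM. The 6 smooth muscle markers, all 6 detected in both, summed to 144 CPM and 215 CPM: Tagln, at 105.5 and 184 CPM, Cnn1 and Des were higher in Tom+, while Acta2, at 25.7 and 14.7 CPM (0.573, 0.342 to 0.915), Myh11 and Actg2 were lower. The 6 pericyte markers summed to 90.6 CPM with all 6 detected in Tom- and to 35.0 CPM in Tom+, where Cspg4 and Higd1b were at 0. Gja4, Gja5 and Sema3g were at most 0.308 CPM in fibroblast-like and 0.617 CPM in erythroid-like cells of Tom-. In smooth muscle-like cells of Tom-, however, Gja4 was 171 CPM and Jag1 128 CPM. Sema3g was 1.42 CPM there, from 1 UMI, and Gja5 had no UMI. The part of other markers in the ratios was not tested.

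The makeup of the gates moved with the library: venous-gated cells were 28.7% of Tom- and 59.5% of Tom+ endothelial-like cells, and capillary-gated cells 33.3% and 15.95%. Giving each Tom- gate the share of UMIs that it had in Tom+ put Sema3g at 34.0 CPM, Hey1 at 32.8 CPM, Gja4 at 22.3 CPM and Gja5 at 8.41 CPM. These values lie between the measured Tom- and Tom+ levels, and the measured Tom+ levels were 0.268, 0.299, 0.440 and 0.583 times as high. The same weighting gave 185 CPM for Notch1, which was 193 CPM in Tom+, and 81.2 CPM for Dll4, 37.3 CPM for Notch4, 43.7 CPM for Jag1, 52.2 CPM for Jag2 and 112 CPM for Efnb2. For these 5 genes the measured Tom+ levels were 0.675 (Notch4) to 0.793 (Dll4) times as high. The weighting uses levels of 1 library and gives no error. It also treats a gate as alike in both libraries. The arterial markers summed to 5302 CPM in Tom- and 3826 CPM in Tom+ arterial-gated cells, and to 1433 and 806 CPM between the gates. In capillary-gated cells they summed to 985 and 664 CPM, and in venous-gated cells to 1114 and 1002 CPM. The part of these differences in the values above was not tested.

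**Figure D3:**
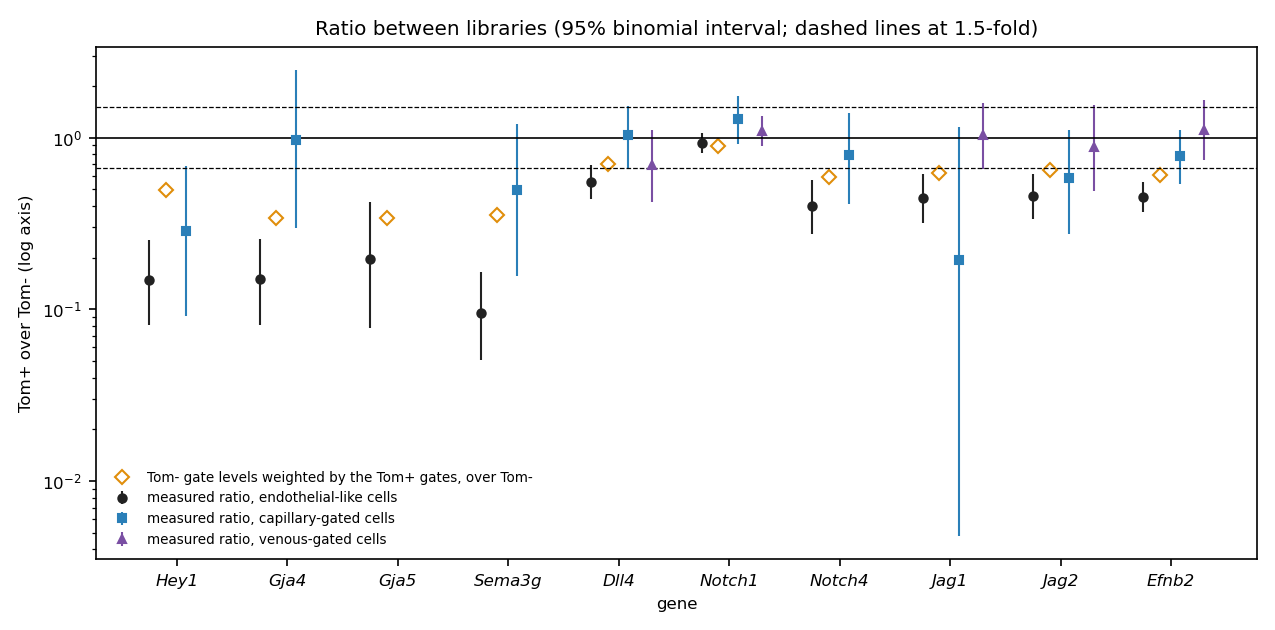
Tom+ over Tom- ratio on a log axis for each gene, with 95% conditional binomial intervals, in all endothelial-like cells (circles), capillary-gated (squares) and venous-gated cells (triangles), for genes measured and with UMIs in both libraries. Diamonds give Tom- gate levels weighted by the Tom+ gates over the Tom- level, and they lie above the circles for 9 genes and below for Notch1.

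Within the venous gate, the largest in Tom+, the 5 measured members had ratios from 0.693 (Dll4, 0.419 to 1.11) to 1.11 (Efnb2, 0.741 to 1.66), and none was lower by 1.5 times, against 9.77% of measured genes, or higher, against 5.08%. Jag1 was 36.0 CPM among Tom- and 37.3 CPM among Tom+ cells there, and Notch1 was 160 and 174 CPM. Hey1, Gja4, Gja5 and Sema3g had 1, 1, 0 and 2 UMIs in the 188 Tom- cells. They had none in the 97 Tom+ cells, where 3 counts would be 3.29 CPM, so these 4 genes were too low in this gate to be compared.

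Within the capillary gate (218 Tom- and 26 Tom+ cells), 4 of the 9 measured members were lower by 1.5 times or more, where 21.6% of measured genes were, and none was as much higher, where 11.3% were. Hey1 was 100.4 CPM in Tom- and, from 5 UMIs, 28.6 CPM in Tom+ (0.285, 0.0910 to 0.682), and it was the only one of the 9 whose interval excluded 1. Sema3g (0.492, 0.155 to 1.20), Jag2 (0.583, 0.273 to 1.11) and Jag1 (0.194, 0.0048 to 1.15, from 1 Tom+ UMI) had intervals that included 1. Dll4 was 156 and 160 CPM and Notch1 215 and 275 CPM. In cells between the gates (151 Tom- and 34 Tom+), Hey1 was 74.6 and 20.5 CPM (0.275, 0.0977 to 0.628). Gja4 was 35.8 CPM in Tom- with no UMI in Tom+ (upper limit 0.372). Sema3g was 54.1 and, from 1 UMI, 3.42 CPM (0.0631, 0.00157 to 0.367). Notch4 (0.528, 0.261 to 0.977) and Efnb2 (0.552, 0.370 to 0.801) had intervals below 1. Those of Gja5 (0.223, from 1 Tom+ UMI), Dll4 (0.723), Notch1 (0.792), Jag1 (0.616) and Jag2 (0.601) included 1.

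Within the arterial gate 5 of 10 were lower by 1.5 times or more, where 35.1% of 5670 measured genes were, and none was as much higher, where 17.8% were. The median log2 ratio was -0.62 beside -0.21 over all measured genes. The 6 Tom+ cells had 48095 UMIs in all, of which 3 would be 62.4 CPM. They were uneven: 1 cell of 23576 UMIs held 38 UMIs of the members and all 10 genes, including each of the 6 Gja5 UMIs, another of 8180 UMIs held 22 UMIs of 7 genes, and the other 4 held 1, 2, 1 and 5. In the same order the cells had 25, 31, 2, 2, 1 and 0 UMIs of tdTomato. The arterial score led the next by 0.803 and 2.06 in the first 2 cells and by 0.338 to 0.369 in the other 4. The cell with all 10 genes has a barcode that also occurs in the Tom- library. Without shared barcodes 5 Tom+ cells remained, 6 of 10 genes were lower by 1.5 times and the median was -0.75. For Sema3g the arterial-gate levels were 446 CPM among Tom- cells and, from 7 UMIs, 146 CPM in Tom+ (0.327, 0.130 to 0.681), and for Jag1 272 CPM and, from 3 UMIs, 62.4 CPM (0.229, 0.0469 to 0.681). Gja5, at 129 and 125 CPM (0.968, 0.346 to 2.19), and Notch1, at 262 and 291 CPM (1.11, 0.596 to 1.91), had intervals that included values 1.5 times lower and 1.5 times higher. In Tom+ the cell with the shared barcode held 6 of the 7 UMIs of Sema3g and all 3 of Jag1. Without shared barcodes Sema3g was 40.8 CPM in Tom+, from 1 UMI (0.0923, 0.00233 to 0.518), and Jag1 and Gja5 had no UMI, with upper limits of the ratio of 0.556 and 1.19.

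In lymphatic endothelial-like cells 1 of 7 measured members was lower by 1.5 times, with 11.9% of measured genes as much lower, and none higher, with 8.32%: Hey1, at 35.7 CPM (25.8 to 48.1) among Tom- and 17.8 CPM (7.68 to 35.1) among Tom+ cells (0.498, 0.202 to 1.07). Gja4 (1.24, 0.878 to 1.72), Efnb2 (1.15, 0.906 to 1.45), Dll4 (0.948, 0.662 to 1.34) and Notch1 (0.949, 0.783 to 1.14) had intervals that included 1.

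In single cells, each thinned at random to 2000 UMIs, 3 or more of the 10 genes were found together in 69.4% of 85 arterial-gated Tom- cells (58.5 to 79.0), 20.1% of 194 capillary-gated (14.7 to 26.4), 2.17% of 184 venous-gated (0.595 to 5.47) and 8.89% of 180 lymphatic cells. The thinning left out 13, 24, 4 and 17 shallower cells. Unthinned, the shares were 88.8%, 57.8%, 21.8% and 55.3%. No fibroblast-like cell of 2592 in Tom- held 3 after thinning (exact upper limit 0.142%). In Tom+ 20.8% of 24 capillary-gated cells (7.13 to 42.2) and none of 91 venous-gated cells (limit 3.97%) held 3 or more, with intervals that overlap those of Tom-. Of the 4 arterial-gated Tom+ cells left after thinning 1 held 3 or more (25%, 0.631 to 80.6). Over all endothelial-like cells, whose makeup of gates differed between the libraries, the share was 22.1% of 596 in Tom- and 5.92% of 152 in Tom+.

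**Figure D4:**
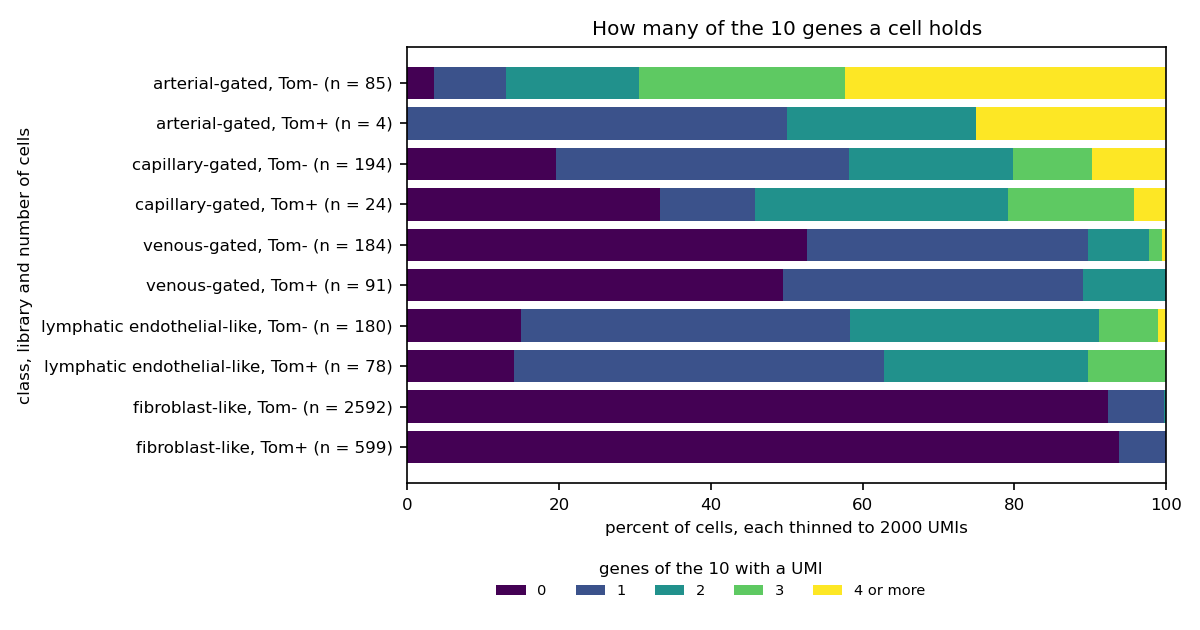
Percent of cells by how many of the 10 genes had a UMI, each cell thinned to 2000 UMIs, by class and library (bars, with the number of cells). Arterial-gated Tom- cells are the row with most cells at 3 or more (69.4%), and 92.3% of fibroblast-like Tom- cells hold none.

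Pairs of the genes occurred in the same thinned endothelial-like Tom- cell more often than the product of their shares for 41 of 45 pairs, at a median of 1.48 times. Gja5 with Sema3g (10 cells, 4.55 times), Gja4 with Sema3g (26 cells, 4.49 times) and Gja4 with Gja5 (6 cells, 3.76 times) stood highest. Notch4 with Jag1 (0.828 times, 8 cells) was among the 4 pairs below 1, of which the lowest stood at 0.392 times. Within the arterial gate, which the 10 genes did not help to draw, the median was 1.06 times, with 25 of 45 pairs above 1.

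Of 66 other genes of the pathway and its partners 51 were measured in endothelial-like cells, of which 10 were lower by 1.5 times in Tom+ and 3 higher, beside the 9.61% and 2.31% of all measured genes, with a median log2 ratio of -0.13. The lowest were Cxcl12, a chemokine, at 954 CPM among Tom- and 338 CPM among Tom+ cells (0.354, 0.322 to 0.389), and its receptor Cxcr4 at 31.6 and 11.2 CPM (0.354, 0.197 to 0.595). The connexin genes Gjc1 (0.391, 0.172 to 0.781) and Gja1 (0.456, 0.378 to 0.548) followed. The growth factor gene Vegfc (0.5003, 0.334 to 0.728) and Sox17 (0.542, 0.469 to 0.625), which encodes a transcription factor of arterial endothelium, were also used as markers of the arterial gate. Cxcl12 was 2156 CPM in capillary-gated, 811 CPM in arterial-gated and 127 CPM in venous-gated cells of Tom-.

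All 4 genes of the transcription complex and all 9 of the cleavage enzymes were measured, and of these 13 Ncstn was lower and Maml2 higher by 1.5 times, where 9.61% of all measured genes were lower and 2.31% higher. Rbpj, the DNA-binding partner of the receptors, was 47.3 and 46.9 CPM (0.991, 0.743 to 1.31). The highest of the 51 was Lfng, a sugar transferase that changes which ligands a Notch receptor answers to, at 69.6 CPM among Tom- and 134 CPM among Tom+ cells (1.92, 1.60 to 2.30). Lfng was 26.6, 34.0 and 126 CPM in arterial-gated, capillary-gated and venous-gated cells of Tom-, and its ratio within the venous gate was 1.35 (1.09 to 1.67). Maml2, a coactivator, was 41.8 and 63.7 CPM (1.52, 1.18 to 1.96), and Nrp2, a semaphorin and VEGF co-receptor of veins and lymphatics, was 251 and 379 CPM (1.51, 1.36 to 1.67).

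The target genes of the pathway did not go one way. Beside Hey1, at a ratio of 0.149, Nrarp, a feedback inhibitor, was 56.5 CPM among Tom- and 32.9 CPM among Tom+ cells (0.583, 0.418 to 0.797), while Hes1, a target that other signals also control, was 200.4 and 269 CPM (1.34, 1.19 to 1.51). Hes1 was 1.54 times (1.30 to 1.83) higher in Tom+ within the venous gate and 1.52 times (1.14 to 2.00) within the capillary gate. Hey2 was 40.6 CPM in arterial-gated, 1.51 CPM in capillary-gated and 0.590 CPM in venous-gated cells of Tom-, and was too low to be measured over all endothelial-like cells. Ephb4, the venous receptor of ephrin-B2 and a marker of the venous gate, was 100.2 and 124 CPM (1.24, 1.03 to 1.47), against the 0.453 of Efnb2. Numbl, an adaptor known to restrain Notch, was 9.55 and 12.6 CPM (1.32, 0.719 to 2.33).

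**Figure D5:**
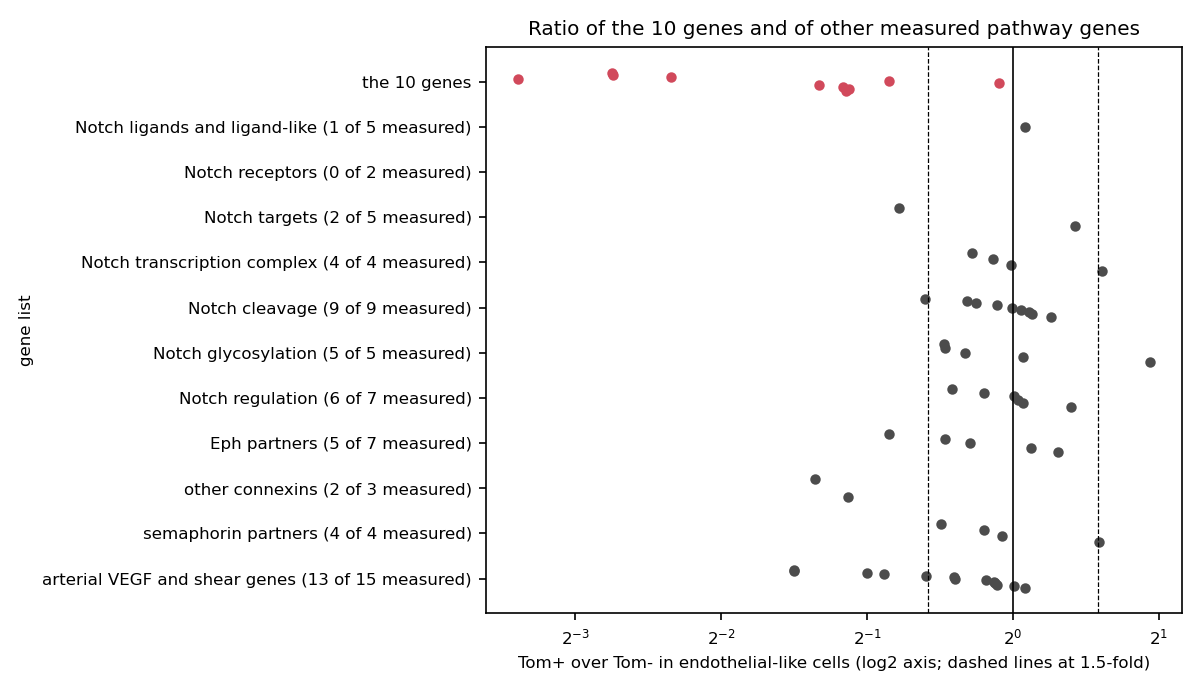
Tom+ over Tom- ratio in endothelial-like cells, on a log2 axis, for the 10 genes (top row) and the measured genes of each other list (rows below, with the number measured); each point is 1 gene. The top row has 9 points left of the 1.5-fold line, and other points left of it lie mainly among the connexins and the arterial VEGF and shear genes.

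Over 22 sums of a class in a library, the 8 genes whose log2(CPM + 1) was most like the mean of the 10 were Rbp7 (Pearson r = 0.911), Fryl, Ssu2, Arl15, Dysf, Cav2, Stc1 and Tcf15 (r = 0.848), out of 6610 genes ranked. The sums share 2 libraries and 1 animal, so r is a description. Rbp7, which encodes a retinoid-binding protein, was 161 CPM in arterial-gated, 177 CPM in capillary-gated and 3.54 CPM in venous-gated cells of Tom-. Tcf15 was 81.3, 240.1 and 15.9 CPM, and Ssu2 was 71.5 and 23.4 CPM with no UMI in venous-gated cells. The members' own r, which their share in the mean raises, ran from 0.677 (Jag2) to 0.875 (Sema3g).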

How the data were processed

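The authors deposited 1 matrix of raw UMI counts per library, with Cell Ranger 7.0.0 and genome build mm10 given per the submitters' processing notes, while both matrices carry software version 3.0.2 per the file headers. The step that selected barcodes as cells, and whether intron reads were counted, are not given in the sources used here. Cells with at least 1000 UMIs, 500 genes and under 15% mitochondrial UMIs were kept, and predicted doublets (scanpy 1.11.5, Scrublet) were left out, 690 in Tom- and 10 in Tom+. Cells were clustered (2000 variable genes, 30 components, Leiden resolution 1) without the 10 genes, tdTomato and mitochondrial genes, and clusters were named from fixed marker lists. Endothelial clusters held 689 and 174 cells; those with fewer than 3 endothelial markers, or with more UMIs of other classes' markers (haemoglobins aside) than of endothelial ones, were left out, a limit set after seeing the data, as was the margin of the gates. UMIs were summed per class and library and scaled to CPM. Ratios have exact conditional binomial intervals, levels exact Poisson and shares exact Clopper-Pearson intervals at 95%. With 1 library per group no test was possible. The calculation was tested on simulated data.

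The 10 genes and all lists were chosen with earlier results of these data known. Named genes were the 10, the 6 highest and 6 lowest measured genes of the other lists, partners compared with a member, and the 8 genes of most like pattern. Alternatives were a stricter cell filter, doublets kept, a wider gate margin, subtypes from clusters, TMM scaling (edgeR 4.0.16), a pseudocount of 5 CPM, equal weight per cell, thinning and measured members only. Leaving out shared barcodes, keeping cells with other markers and a gate without margin were added after seeing the data.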

Additional observations from a re-analysis of the deposited data

How the results depend on the processing

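No paired analysis was possible because each group holds 1 library, and for the same reason no replicate could be left out. The share of arterial-gated cells moved with the gate: 11.6% in Tom- and 1.23% in Tom+ with a margin of 0.5, 11.5% and 1.23% with subtypes from clusters made without the 10 genes, and 22.6% in Tom- and 5.52% in Tom+ without a margin. The strict gate and the clusters left 2 Tom+ arterial cells each, so every arterial-gate ratio rests on 2 to 9 Tom+ cells. The median log2 ratio of the 10 genes in arterial-gated cells was -3.92 after thinning to 2000 UMIs, which keeps 4 Tom+ cells. Over the 10 genes in all endothelial-like cells and the 3 gates, 36 of 440 alternative log2 ratios had the other sign than the reported one, all of them within a gate, and the cause was not tested. In 3 of the 36 the reported ratio was 1.5 times or more: Hey1 in arterial-gated cells was 0.82 after thinning, Jag1 in capillary-gated cells 0.40 with cells holding markers of other classes kept, and Hey1 in venous-gated cells 0.35 without a margin. The other 33 started within 1.5 times, and among them Gja4 in capillary-gated cells was 1.37 and Dll4 and Notch1 in arterial-gated cells 0.86 and -0.94 after thinning. TMM scaling moved all arterial-gate log2 ratios by -0.25. Over all endothelial-like cells 9 of 10 genes were lower by 1.5 times under each alternative run, and the median log2 ratio ran from -1.50 (thinned) to -1.13 (TMM scaling).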

Other observations

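In mesothelial-like cells Notch1 was 7.48 CPM among Tom- and 20.2 CPM among Tom+ cells (2.70, 2.00 to 3.62), and Jag2 was 5.77 and 13.2 CPM (2.29, 1.59 to 3.25). A cluster of 10 Tom- and 12 Tom+ cells, with a median of 56103 UMIs and with Gsdmc2, which also leads the basal or intermediate urothelial-like cluster, among its leading genes, carried most of the Tom+ UMIs of both genes. Without it Notch1 was 3.59 and 3.98 CPM (1.11, 0.542 to 2.08) and Jag2 3.71 and 1.99 CPM (0.536, 0.189 to 1.23). Of the 165 Tom+ mesothelial-like cells 67 had a barcode that also occurs in Tom-. Efnb2, the most abundant of the 10 genes in these cells, was 22.6 and 29.9 CPM (1.33, 1.06 to 1.64), and 22.6 and 20.9 CPM (0.926, 0.624 to 1.33) without shared barcodes.

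In clusters that were given no name, 3024 Tom- and 234 Tom+ cells in all, Jag1 was 5.61 and 11.7 CPM (2.09, 1.25 to 3.32) and Notch1 7.90 and 12.9 CPM (1.63, 1.005 to 2.52). Without shared barcodes 140 Tom+ cells remained there, and the ratios were 1.86 (0.997 to 3.21) and 1.499 (0.843 to 2.49). In prostate or seminal vesicle-like cells Efnb2 was 29.6 CPM among 356 Tom- cells and, from 11 UMIs, 98.2 CPM among 15 Tom+ cells (3.32, 1.47 to 7.04), of which 1 had no shared barcode.

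In Schwann-like cells, 49 in Tom- and none in Tom+, Notch1 was 158 CPM (116 to 211) and Jag1 68.9 CPM (42.1 to 106), with Gja4, Gja5 and Sema3g at 0, where 3 counts would be 10.3 CPM.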
